A study of Sus scrofa with 24 samples.

Results

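The genes described here make, load, remodel and clear lipoproteins, and several of them act on high-density lipoprotein (HDL). They were chosen by name from a list of 10 genes (APOA1, APOB, APOC3, APOE, LIPC, SCARB1, ABCA1, LCAT, MTTP and PLTP). Of the 10, 8 were found among the 13463 genes of the deposited liver tables, 7 by their symbol and APOC3 through its identifier, while SCARB1 and PLTP were not found and are not analysed here. All 8 passed the filter on low counts that left 8279 genes for testing.

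RNAseq libraries came from the livers of 24 hybrid fattening pigs, with 1 library per pig. In the Sustanon group, 3 castrated boars, 3 sows and 2 uncastrated boars had received Sustanon, a mixture of testosterone esters in oil, at 4 mg/kg. The Myodin group of 2 castrated boars, 3 sows and 3 uncastrated boars had received Myodin, a nandrolone ester in oil, at 5 mg/kg. Untreated controls were 3 castrated boars, 3 sows and 2 uncastrated boars. According to the study's methods, the injections into the neck muscle were repeated over the last weeks before slaughter, the treated groups had also had an earlier injection in a dose-finding phase, both preparations held benzyl alcohol and arachis oil, and the treatment groups were housed in separate pens with the controls in a separate room, so that treatment, carrier and housing cannot be told apart. Castrated boars and sows are joined below as pigs without testes.

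Lipoproteins carry cholesterol and triglycerides through the blood. The liver secretes apolipoprotein B particles rich in triglyceride, and it starts HDL formation by moving cholesterol and phospholipid through the transporter ABCA1 onto apolipoprotein A-I. Circulating HDL is then matured by lecithin-cholesterol acyltransferase and trimmed by hepatic lipase, and androgens are known for raising hepatic lipase activity and lowering HDL cholesterol in people.

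Total counts lay between 9267780 and 14017276 per library, with medians of 10857171 in the Sustanon, 11139846.5 in the Myodin and 9807966 in the control group. Hepatocyte markers of the labelled tissue were high, with albumin (ALB) at 44880 to 157100 TPM, whereas the muscle marker MYH7 did not exceed 0.18 TPM. In 3 control libraries the Y-linked genes went against the labelled sex. The library labelled control castrated boar 15 had 1 count of EIF1AY, and those labelled control sows 16 and 18 had 476 and 434 counts. In the fits by treatment and by treatment and testes, results resting on the controls are also given without these libraries where calls change. All 3 are labelled as pigs without testes. No exchange among them would bring all 3 labels and counts together, so at least 1 label would still go against its counts. The study's serum measurements list no testosterone for the pigs with these numbers, and list it for the control uncastrated boars. On the leading principal component score of its qPCR on liver RNA, these pigs lay with the other controls without testes. Whether each library came from the pig of its label was not tested.

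The 8 genes together took 2.89% to 5.21% of the counts of a library. On the length-scaled TPM scale, the order of the mean levels over the 24 pigs was APOC3, APOA1, APOE, APOB, LCAT, MTTP, LIPC and ABCA1. APOC3, which encodes an inhibitor of triglyceride clearance, had a mean level of 42740 ± 9484 TPM (SD, n = 24), the rank of 3 among all genes. APOA1, the main structural protein of HDL, followed at 16010 ± 3159 TPM and rank 7, and APOE, a ligand for lipoprotein uptake receptors, at 4193 ± 660.0 TPM and rank 31. The ranges of these 3 genes did not overlap.

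APOB, the structural protein of the triglyceride-rich particles, had a mean level of 880.9 ± 163.7 TPM, and LCAT, the enzyme that esterifies cholesterol on HDL, had 512.8 ± 90.35 TPM. The APOB range of 474.9 to 1204 TPM overlapped with the LCAT range of 375 to 721.8 TPM. MTTP, which loads lipid onto apolipoprotein B, had 275.0 ± 61.51 TPM, and LIPC, which encodes hepatic lipase, had 238 ± 68.39 TPM, again with overlapping ranges. ABCA1 was the lowest of the 8 at 16.67 ± 10.38 TPM and rank 3626. It was also the most variable, with a coefficient of variation of the normalised count of 62.3% over the pigs, against 15.5% for APOE, the steadiest member.

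**Figure D1:**
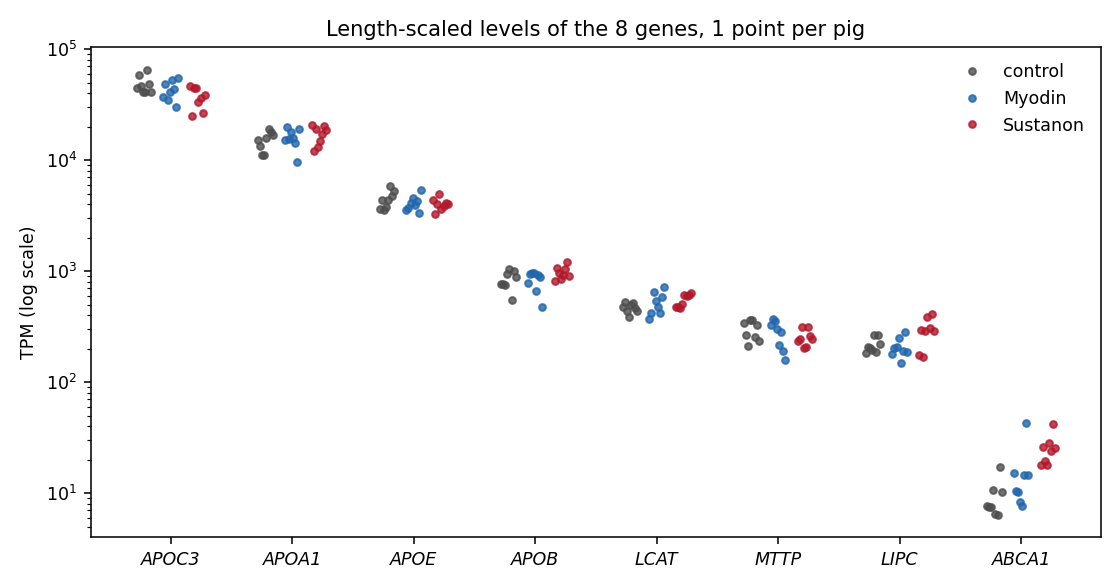
TPM of the 8 genes on a log axis, 1 point per pig and coloured by treatment, in the order of the mean level. APOC3 lies highest, between 24990 and 65400 TPM, and ABCA1 lowest, between 6.37 and 43.13 TPM, with every Sustanon point of ABCA1 above every control point.

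In the genome build Sscrofa11.1, APOA1 (ENSSSCG00000030921) lies on chromosome 9 from 44216481 to 44218360, and APOC3 (ENSSSCG00000015069) is its neighbour from 44211171 to 44213538. ABCA1 (ENSSSCG00000005423) lies on chromosome 1 from 246144277 to 246278492, and LIPC (ENSSSCG00000004596) on the same chromosome from 113433684 to 113604139. APOE (ENSSSCG00000003088) is found on chromosome 6 from 51373113 to 51375333, as is LCAT (ENSSSCG00000028350) from 28550356 to 28553561. APOB (ENSSSCG00000008595) is on chromosome 3 from 117250096 to 117316200, and MTTP (ENSSSCG00000009179) on chromosome 8 from 120820660 to 120871468. These values sum reads over each whole gene, with no split by exon or isoform.

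The level of ABCA1, the transporter that starts HDL formation, was higher with Sustanon. Normalised read counts (CPM, counts scaled to a library of a fixed size) were 38.44, 39.31, 47.26, 52.88, 54.92, 63.24, 78.69 and 96.59 in the 8 controls. In the 8 Sustanon pigs they were 112.6, 116.1, 123.2, 154.5, 162.4, 170.3, 198.3 and 259.6. The lowest Sustanon pig, castrated boar 1, was thus above the highest control, uncastrated boar 25. The log2 fold change was 1.46 (SE 0.30, 2.75-fold), with an adjusted p of 0.0114 by edgeR's quasi-likelihood test with Benjamini-Hochberg adjustment. Of the 8 members, ABCA1 was the only gene to pass the adjusted threshold of 0.05, against 5.07% of all tested genes and 3.39% that passed and were higher. It was also the only member whose groups did not overlap, which held for 0.471% of all genes.

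When the 3 libraries with Y-linked counts against their labels were left out, the log2 fold change of ABCA1 was 1.43 with an adjusted p of 0.116, and in that fit of 21 libraries edgeR called 0 of all genes (1199 had an unadjusted p under 0.05). Leaving out any 1 of the 24 libraries kept the log2 fold change between 1.33 and 1.59 and the adjusted p at or below 0.0311. Macrophages are known to express ABCA1 too. Among macrophage and leukocyte markers, 0 of 6 tested genes were called by edgeR and 0 had an unadjusted p under 0.05. Their summed level was 1014 to 1522 TPM with Sustanon and 1141 to 1547 TPM in the controls, and that of 4 hepatocyte markers was 123700 to 201600 TPM and 99310 to 171400 TPM. In such bulk tissue, more cells of a type and more RNA per cell cannot be told apart.

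LIPC and APOC3 moved less and did not pass the adjusted threshold. For LIPC, the control pigs had 158.4, 209.5 and 237.8 CPM (lowest, median and highest), and the Sustanon pigs 141.5, 281.4 and 393.3 CPM. The groups overlapped, since Sustanon castrated boars 1 and 3, at 162.1 and 141.5 CPM, lay within and below the control range, while the other 6 Sustanon pigs lay between 249.6 and 393.3 CPM, above all controls. The log2 fold change of LIPC was 0.44 (SE 0.17, unadjusted p = 0.0136, adjusted p = 0.127 by edgeR). Without Sustanon castrated boar 1 it was 0.51 with an adjusted p of 0.047, and without castrated boar 3 it was 0.53 with an adjusted p of 0.0306. The lowest value with a library left out was 0.35, without Sustanon sow 5 (adjusted p = 0.276).

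APOC3 went in the other direction, with 12680, 14280 and 20550 CPM in the controls and 8111, 11830 and 15120 CPM with Sustanon. Sustanon castrated boar 2 and uncastrated boar 19 were the lowest, at 8111 and 8282 CPM. Sows 5 and 6 and uncastrated boar 20 also lay below all controls, and the other 3 Sustanon pigs lay within the control range. The log2 fold change was -0.41 (SE 0.16, unadjusted p = 0.0168, adjusted p = 0.144 by edgeR). Thus 3 of 8 members had an unadjusted p under 0.05 in this comparison, against 19.6% of all genes.

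The other 5 members showed smaller differences between Sustanon and control pigs. APOA1 had medians of 7870 CPM in controls and 9152 CPM with Sustanon, a log2 fold change of 0.17 with a 95% interval of -0.12 to 0.46. For APOB the medians were 6264 and 7048 CPM and the interval of the log2 fold change ran from -0.08 to 0.51. For LCAT they were 380.9 and 470.6 CPM, with an interval of -0.05 to 0.51. APOE, with 8963 and 8317 CPM and an interval of -0.38 to 0.12, and MTTP, with 715.5 and 607.3 CPM and an interval of -0.52 to 0.12, lay on the lower side. None of these 5 passed the threshold, and the groups overlapped for each of them. The median log2 fold change of the 8 members was 0.19, with 5 above and 3 below 0, against -0.01 over all genes.

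**Figure D2:**
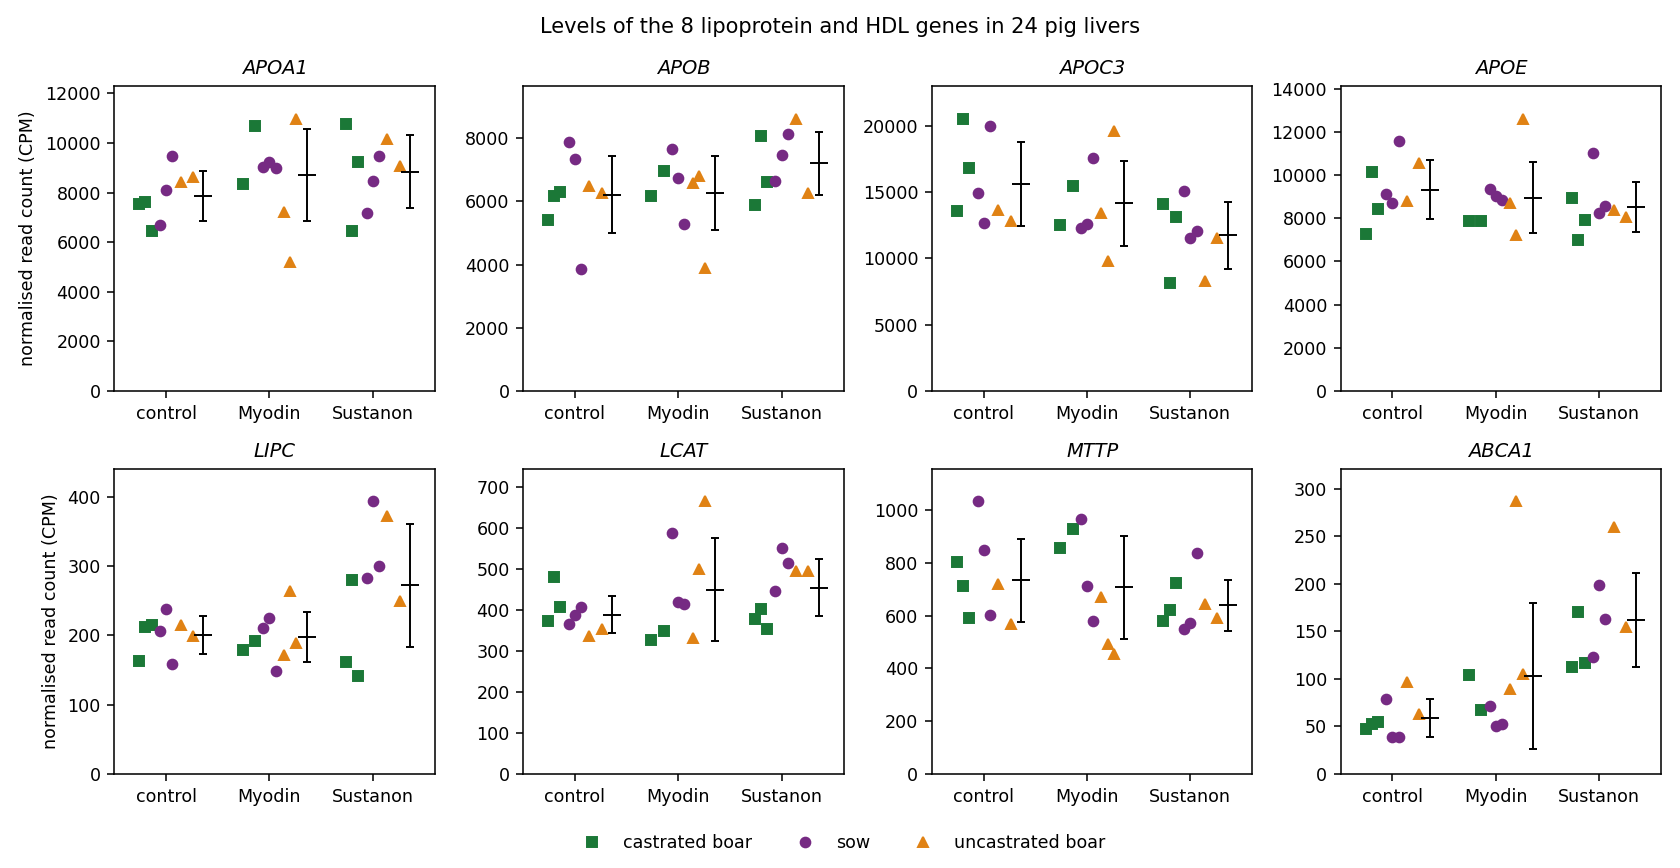
Normalised read counts (CPM) of the 8 genes by treatment, 1 point per pig with its shape giving the labelled sex, and the mean with SD of the 8 pigs beside each group. The ABCA1 groups of control and Sustanon pigs do not overlap, the highest control being at 96.59 CPM and the lowest Sustanon pig at 112.6 CPM, whereas the groups overlap for the other 7 genes.

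With Myodin, 0 of 8 members were called by edgeR, 1 (ABCA1) had an unadjusted p under 0.05, and DESeq2 also called 0. Over all genes, 0% were called by edgeR (597 had an unadjusted p under 0.05, or 7.21%), and DESeq2 called 1 gene. ABCA1 had 50.27, 80.64 and 286.5 CPM (lowest, median and highest) in the 8 Myodin pigs, a range that overlapped with the controls and, through uncastrated boar 23 at 286.5 CPM, exceeded all Sustanon pigs. The next Myodin pig was at 104.8 CPM. The log2 fold change was 0.81 (SE 0.29, unadjusted p = 0.0104, adjusted p = 0.519), and without uncastrated boar 23 it fell to 0.39 with an adjusted p of 0.763. The log2 fold changes of the other 7 members lay between -0.14 for APOC3 and 0.21 for LCAT. No member separated the Myodin and control pigs without overlap, and 0.0121% of all genes did.

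Sustanon and Myodin were also compared with each other, at doses and with esters that differed. Over all pigs 0 of 8 members were called by edgeR, against 0.664% of all genes, and 2 members had an unadjusted p under 0.05, against 18.1%. These were ABCA1, with a log2 fold change of 0.65 (SE 0.29, adjusted p = 0.231), and LIPC, with 0.47 (SE 0.17, adjusted p = 0.148). Without Myodin uncastrated boar 23 the ABCA1 value was 1.07 with an adjusted p of 0.00668, and with the labelled sex as a covariate it was 0.86 with an adjusted p of 0.041. Without Sustanon castrated boar 3, LIPC was at 0.54 with an adjusted p of 0.0457. Other fits went lower, with ABCA1 at 0.52 (adjusted p = 0.412) without Sustanon uncastrated boar 19. LIPC was at 0.37 (adjusted p = 0.293) without Sustanon sow 5.

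In the pigs without testes, which lack their own testicular testosterone, ABCA1 was again higher with Sustanon. Its CPM were 112.6, 116.1, 123.2, 162.4, 170.3 and 198.3 in the 6 Sustanon pigs, 50.27, 52.12, 67.35, 71.87 and 103.8 in the 5 Myodin pigs, and 38.44, 39.31, 47.26, 52.88, 54.92 and 78.69 in the 6 controls. All Sustanon pigs were above all Myodin pigs and all controls, and the latter 2 groups overlapped. Such a separation was seen for 3.31% of all genes against the controls and for 3.04% against Myodin.

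Against the controls without testes, the log2 fold change of ABCA1 with Sustanon was 1.504 (SE 0.27, 2.84-fold, adjusted p = 0.00202 by edgeR), and it was 1.66 with an adjusted p of 0.0212 in the 21 libraries. ABCA1 was the only one of 8 members called, against 5.54% of all genes, and with APOC3 it made 2 members with an unadjusted p under 0.05, against 19.3%. Against Myodin the log2 fold change was 1.09 (SE 0.28, adjusted p = 0.0388), 1 of 8 members called against 2.69% of all genes. This last call was lost when Sustanon castrated boar 2, sow 4, 5 or 6, or Myodin castrated boar 9 or sow 10, 11 or 12 was left out, with log2 fold changes of 0.99 to 1.14 and adjusted p of 0.0524 to 0.112. It was also lost in the fit of 9 groups by labelled sex, at 1.06 (adjusted p = 0.0586), and in castrated boars alone, at 0.64 (adjusted p = 0.972).

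Myodin against control gave ABCA1 a log2 fold change of 0.41 in pigs without testes (95% interval -0.15 to 0.98, adjusted p = 0.632 by edgeR). Here 0 of 8 members were called and 0 had an unadjusted p under 0.05, against 0.0966% and 10.3% of all genes. DESeq2 called 0 members and 66 genes. The ABCA1 value was 0.22 without Myodin castrated boar 8, and by labelled sex it was 0.73 in castrated boars and 0.16 in sows, with adjusted p of 0.802, 0.639 and 0.905.

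Castrated boars and sows, with 2 or 3 pigs per treatment, were compared in a fit of 9 groups. The log2 fold change of ABCA1 with Sustanon was 1.36 (SE 0.38, adjusted p = 0.126) in castrated boars and 1.63 (SE 0.38, adjusted p = 0.0476) in sows, and the difference of 0.27 had a 95% interval of -0.84 to 1.37 (adjusted p = 0.998). LIPC was at -0.01 (SE 0.25) in castrated boars and at 0.69 (SE 0.25, unadjusted p = 0.0116, adjusted p = 0.181) in sows. The 3 Sustanon sows had 282.5, 393.3 and 299.7 CPM of LIPC and the control sows 206.6, 237.8 and 158.4 CPM. The difference of the LIPC effects between sows and castrated boars, a contrast added after seeing the data like that of ABCA1, was 0.71, with an interval of -0.03 to 1.44 and an adjusted p of 0.998, so it was not resolved. These sex labels include the 3 control libraries whose Y-linked counts went against them, and this fit was not repeated without those libraries.

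The uncastrated boars, which kept their testes, gave less precise values. ABCA1 had 63.24 and 96.59 CPM in the 2 controls, 154.5 and 259.6 CPM in the 2 Sustanon boars, and 89.42, 104.8 and 286.5 CPM in the 3 Myodin boars. The log2 fold changes were 1.37 with Sustanon (SE 0.46, unadjusted p = 0.00638, adjusted p = 0.285) and 1.002 with Myodin (SE 0.42, unadjusted p = 0.0267, adjusted p = 0.508). By edgeR and by DESeq2, 0 of 8 members were called for either preparation. Over all genes edgeR called 0% and DESeq2 45 genes with Sustanon, and edgeR 0% and DESeq2 44 genes with Myodin. ABCA1 alone had an unadjusted p under 0.05 with Sustanon, against 10.7% of all genes, and ABCA1 and LCAT with Myodin, against 8.99%. LCAT had a log2 fold change of 0.53 (SE 0.25, unadjusted p = 0.0436, adjusted p = 0.549) with Myodin and 0.52 (SE 0.27, unadjusted p = 0.0668) with Sustanon. Without Myodin uncastrated boar 24 the former value was 0.27, and without uncastrated boar 22 it was 0.78. Without uncastrated boar 23 ABCA1 was at 0.28 with Myodin.

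The effects in uncastrated boars and in pigs without testes were then set against each other as a difference of fold changes. For Sustanon and ABCA1 the difference was -0.13 (95% interval -1.20 to 0.94, adjusted p = 0.97 by edgeR), and for Myodin it was 0.59 (95% interval -0.44 to 1.62, adjusted p = 0.661). The Sustanon difference was 0.21 without control uncastrated boar 25, and the Myodin difference was -0.13 without Myodin uncastrated boar 23. Of the 8 members, 0 were called and 0 had an unadjusted p under 0.05 in either test, against 0.0362% and 0.109% of all genes called and 576 and 987 of the 8279 genes with an unadjusted p under 0.05. DESeq2 called 0 members in either, and 36 and 92 genes. In the controls, uncastrated boars had a log2 ABCA1 level higher by 0.62 than pigs without testes (SE 0.36, adjusted p = 0.431), and by 0.27 without control uncastrated boar 25 (adjusted p = 0.889). Here too 0 of 8 members were called and 0 had an unadjusted p under 0.05, against 1.63% and 14.7% of all genes.

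**Figure D3:**
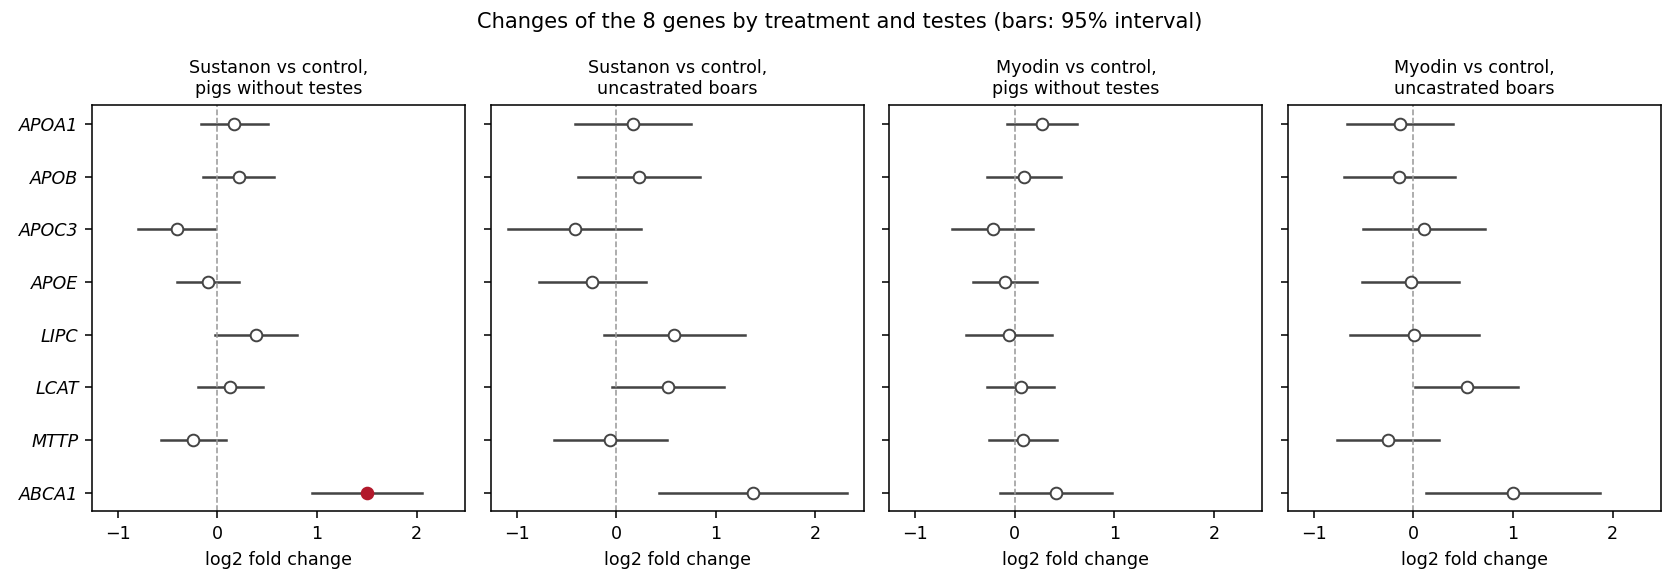
Log2 fold changes of the 8 genes for each preparation against control, in pigs without testes and in uncastrated boars, with 95% intervals as bars and a filled point where the adjusted p was under 0.05. ABCA1 with Sustanon in pigs without testes, at 1.504, is the only filled point, and the intervals are wider in the uncastrated boars.

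Levels of the members were related to each other across the 24 pigs, with 28 pairs computed on log2 CPM. By permutation tests with 100000 permutations, 8 pairs had an adjusted p under 0.05, 4 with a positive and 4 with a negative r. No share over pairs of other genes is given here, so the count describes these pairs only. The permutations ignored treatment, so a shift with treatment shared by both genes of a pair also counts as a relation. The 8 pairs include ABCA1 with APOC3 and ABCA1 with LIPC. The pair with the smallest p was APOB and APOC3, with a Pearson r of -0.711 (permutation p = 0.00014, adjusted p = 0.00392) and a Spearman rho of -0.643 (permutation p = 0.00087, adjusted p = 0.0122). Without the 2 pigs farthest from the APOB median r was -0.599, and it was -0.758, -0.766 and -0.53 within the Sustanon, Myodin and control groups. APOC3 and APOE were positively related, with r of 0.662 (permutation p = 0.00045, adjusted p = 0.0042) and rho of 0.584 (permutation p = 0.00322, adjusted p = 0.018), 0.648 without the 2 farthest pigs and 0.701, 0.712 and 0.514 within the groups.

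LIPC went with APOB, at r of 0.611 (permutation p = 0.00165, adjusted p = 0.00924) and rho of 0.697 (permutation p = 0.00027, adjusted p = 0.00756), and at 0.698 without the 2 farthest pigs. Within the Sustanon, Myodin and control groups that r was 0.71, 0.393 and 0.826. For APOB and APOE, r was -0.556 (permutation p = 0.00543, adjusted p = 0.0217) and rho -0.31 (permutation p = 0.141, adjusted p = 0.282), but -0.085 without the 2 farthest pigs, so that this relation rests on them. LIPC and APOC3 were negatively related, at r of -0.585 (permutation p = 0.00263, adjusted p = 0.0123) and rho of -0.592 (permutation p = 0.003, adjusted p = 0.018), with -0.436 without the 2 farthest pigs and -0.495, -0.697 and -0.281 within groups. LIPC and LCAT had r of 0.499 (permutation p = 0.0129, adjusted p = 0.0452) and rho of 0.51 (permutation p = 0.0124, adjusted p = 0.0496), with 0.392 without those pigs and 0.866, 0.38 and 0.0163 within the Sustanon, Myodin and control groups.

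Because ABCA1 separated the Sustanon and control pigs, its pairs are given only within groups. ABCA1 and LIPC had r of 0.833, 0.565 and 0.333 in the Sustanon, Myodin and control groups, and ABCA1 and APOC3 had -0.794, -0.514 and -0.287.

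A property of the libraries moved with several members. For each library, the trend of its deviations in log2 CPM with the counts per TPM of 7635 genes, a stand-in for transcript length, was taken as the length slope, a measure added after seeing the data. It was -0.0456 to 0.0865 (median 0.0356) in the Sustanon, -0.2122 to 0.0484 (median -0.0119) in the Myodin and -0.0376 to 0.0547 (median -0.0072) in the control libraries, with Myodin uncastrated boar 24 the lowest. By counts per TPM, APOB and ABCA1 lay at percentiles 99.6 and 99.4 of the genes and APOC3 and APOA1 at 1.9 and 5.7. The members were among the genes that gave the slope. A gene at either end of this scale tends to follow the slope through the way it was built, which the permutation tests below do not take into account. No share over other genes is given, so the relations below describe these genes only.

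Across the 24 pigs and over 8 such relations, the length slope had r of 0.774 with APOB (permutation p = 1e-05, the smallest the permutations can give, adjusted p = 8e-05) and rho of 0.797 (permutation p = 1e-05, adjusted p = 8e-05). Without the 2 farthest libraries r was 0.645, and within the Sustanon, Myodin and control groups it was 0.734, 0.901 and 0.658. For APOC3, r was -0.643 (permutation p = 0.00056, adjusted p = 0.00224) and rho -0.643 (permutation p = 0.00086, adjusted p = 0.00229), with -0.556 without these libraries and -0.657, -0.779 and -0.428 within groups. For LIPC, whose counts per TPM lay at percentile 17.4, r was 0.537 (permutation p = 0.00617, adjusted p = 0.0123) and rho 0.72 (permutation p = 8e-05, adjusted p = 0.00032), with 0.749 without them and 0.811, 0.297 and 0.306 within groups. ABCA1, again only within groups, had r of 0.679, 0.106 and 0.201.

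For APOE, r with the length slope was -0.614 (permutation p = 0.00151, adjusted p = 0.00403) and rho -0.426 (permutation p = 0.0391, adjusted p = 0.0521). Without the 2 farthest libraries it was -0.271, so that this relation rests on them, and within the Sustanon, Myodin and control groups it was -0.225, -0.869 and -0.599. For APOA1, r was -0.522 (permutation p = 0.0109, adjusted p = 0.0174) and rho -0.484 (permutation p = 0.0176, adjusted p = 0.0292), with -0.385 without these libraries and -0.714, -0.622 and -0.559 within groups. MTTP and LCAT, at r of 0.308 and -0.157, did not pass the threshold (permutation tests, adjusted p = 0.166 and 0.472; for rho of 0.147 and 0.254, 0.491 and 0.261). Without the 2 farthest libraries these r were 0.0556 and 0.515, so that the sign for LCAT rests on them. Within the Sustanon, Myodin and control groups r was -0.12, 0.432 and 0.939 for MTTP and 0.499, -0.449 and -0.274 for LCAT.

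With the length slope as a covariate, an alternative added after seeing the data, ABCA1 stayed at a log2 fold change of 1.35 with Sustanon over all pigs (adjusted p = 0.0189 by edgeR) and at 1.39 in pigs without testes (adjusted p = 0.00124). Against Myodin in pigs without testes it was 0.88 with an adjusted p of 0.0637. With Sustanon over all pigs, LIPC was then at 0.34 (adjusted p = 0.247) and APOC3 at -0.31 (adjusted p = 0.224).

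**Figure D4:**
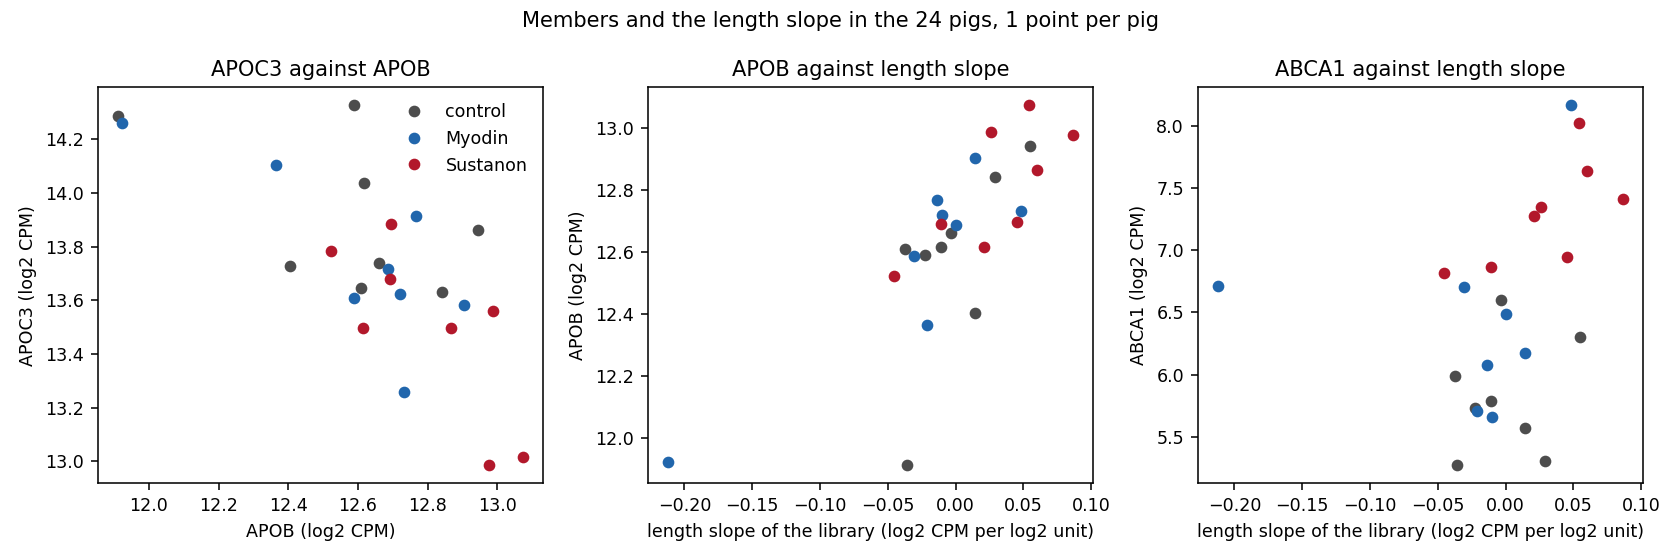
Log2 CPM of APOC3 against APOB, and of APOB and ABCA1 against the length slope of the library, 1 point per pig and coloured by treatment. APOC3 falls as APOB rises (r = -0.711), and APOB rises with the length slope (r = 0.774). The Sustanon points of ABCA1 lie above the control points, which holds on any horizontal axis because these groups do not overlap.

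As APOA1 and APOC3 are neighbours, the ratio of their TPM was also described, with no test since it was chosen after the values were seen. It was 0.2296, 0.3159 and 0.4076 (lowest, median and highest) in the controls, 0.3004, 0.3773 and 0.4382 in the Myodin pigs and 0.2942, 0.4655 and 0.7544 in the Sustanon pigs. The Sustanon pigs reached higher, and all groups overlapped.

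Beyond the members, a further list of 61 genes of lipoprotein metabolism was followed, of which 38 were in the tables and 37 tested. With Sustanon over all pigs, 2 of 37 were called higher and 0 lower by edgeR, against 281 higher and 139 lower of all genes, and 10 higher and 5 lower had an unadjusted p under 0.05, against 19.6% of all genes in either direction. The median log2 fold change of the list was 0.03. With Myodin 0 were called by edgeR, with 2 higher and 1 lower at an unadjusted p under 0.05, near the 7.21% of all genes.

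The called genes were APOA2, the second structural protein of HDL, and NR0B2, a nuclear receptor that represses bile acid synthesis genes. APOA2 had 336.9, 620.4 and 880.9 CPM in the controls and 576.9, 1258 and 1951 CPM with Sustanon, where castrated boars 1 and 3, at 640.6 and 576.9 CPM, lay within the control range. Its log2 fold change was 1.07 (SE 0.28, adjusted p = 0.0251 by edgeR). The call was lost without any of Sustanon sow 5, uncastrated boars 19 or 20, control castrated boars 13 or 14, or control sow 16, with adjusted p of 0.0516 to 0.0616, and in the 21 libraries with an adjusted p of 0.17. NR0B2 had 28.11, 50.52 and 80.21 CPM in the controls and 68.67, 95.22 and 180.3 CPM with Sustanon, a log2 fold change of 0.99 (SE 0.22, adjusted p = 0.014 by edgeR, and 0.116 in the 21 libraries), with overlapping groups.

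The counts by group are read beside 5.07% of all genes called and 19.6% with an unadjusted p under 0.05. The other apolipoproteins had 1 of 4 tested genes called, APOA2, with APOM at 0.27, APOF at 0.06 and APOA4 at -0.40 on the log2 scale. Of the transcription factors that act on lipoprotein genes, 1 of 8 was called by edgeR, NR0B2, and 5 were higher and 0 lower with an unadjusted p under 0.05. Of these, ESRRA was at 0.33 and CREB3L3, a liver transcription factor of triglyceride metabolism, at 0.28 (unadjusted p = 0.00359 and 0.0282), and the bile acid receptor NR1H4 was at 0.44 (adjusted p = 0.058 by edgeR) and the liver X receptor gene NR1H3, a sterol sensor known to induce ABCA1, at 0.24 (unadjusted p = 0.0326, adjusted p = 0.206). With Myodin NR1H3 was at 0.29 (unadjusted p = 0.0113, adjusted p = 0.519). The other liver X receptor gene, NR1H2, was at -0.04 with Sustanon and 0.06 with Myodin (unadjusted p = 0.662 and 0.517 by edgeR). With Sustanon, DESeq2 also called NR1H4 and ESRRA, both with an adjusted p of 0.0319. NR1H4 was called as well in both limma fits, in 23 libraries and with the 2 groups alone (adjusted p = 0.0366 to 0.0492). In the other alternatives these genes stayed uncalled, NR1H4 in 5 of 10 and ESRRA in 9 of 10, with adjusted p up to 0.121 and 0.296. The paraoxonases and PLA2G7, the plasma platelet-activating factor acetylhydrolase, had 0 of 4 called by edgeR. PON1 was at 0.40 and PON2, PLA2G7 and PON3 at -0.45, -0.83 and -0.94, all 4 with an unadjusted p under 0.05. DESeq2 called PON1 (adjusted p = 0.0339), which stayed uncalled in 9 of 10 alternatives, with an adjusted p up to 0.32. Of the receptors and uptake genes 0 of 10 were called and 0 had an unadjusted p under 0.05. The lipase group had 0 of 6 called, with the endothelial lipase gene LIPG at 0.78 and ANGPTL8, a regulator of lipoprotein lipase, at -1.13 (unadjusted p = 0.0314 and 0.00736). In efflux and in assembly and secretion 0 of 2 and 0 of 3 were called, with ABCG5 at 0.45 and CIDEB at -0.36 (unadjusted p = 0.0172 and 0.00386). ABCG8, the other efflux gene tested, was at -0.05 (unadjusted p = 0.72 by edgeR).

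In pigs without testes, 3 of 37 genes were called higher with Sustanon, against 3.49% of all genes, and 0 lower. These were NR0B2 at 1.02, APOA2 at 1.04 and ESRRA, an orphan nuclear receptor of energy metabolism, at 0.43, with adjusted p of 0.0255, 0.0471 and 0.0286 by edgeR, and of 0.105, 0.24 and 0.189 in the 21 libraries. The APOA2 call was kept in 7 of 24 fits with a library left out and in 3 of 11 other alternatives, with adjusted p up to 0.142 and 0.6. The NR0B2 call was kept in 19 of 24 and 7 of 11, and the ESRRA call in 18 of 24 and 7 of 11, each with its highest adjusted p among the left-out fits, 0.0855 and 0.078, without Sustanon sow 5. Against Myodin in the same pigs 2 of 37 were called higher, against 1.49% of all genes. NR1H4 was at 0.64 and PON1, an HDL-bound esterase, at 0.60, with adjusted p of 0.0309 and 0.0499 by edgeR, and DESeq2 also called NR0B2, at 0.89 (adjusted p = 0.0328, against 0.0841 by edgeR). Both of these calls were lost with the length slope as a covariate, with adjusted p of 0.0552 and 0.0889. With a library left out, the PON1 call was kept in 5 of 24 fits and the NR1H4 call in 17 of 24, with adjusted p up to 0.115 and 0.0963, and they were kept in 5 and 9 of the 11 alternatives that include the length slope.

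**Figure D5:**
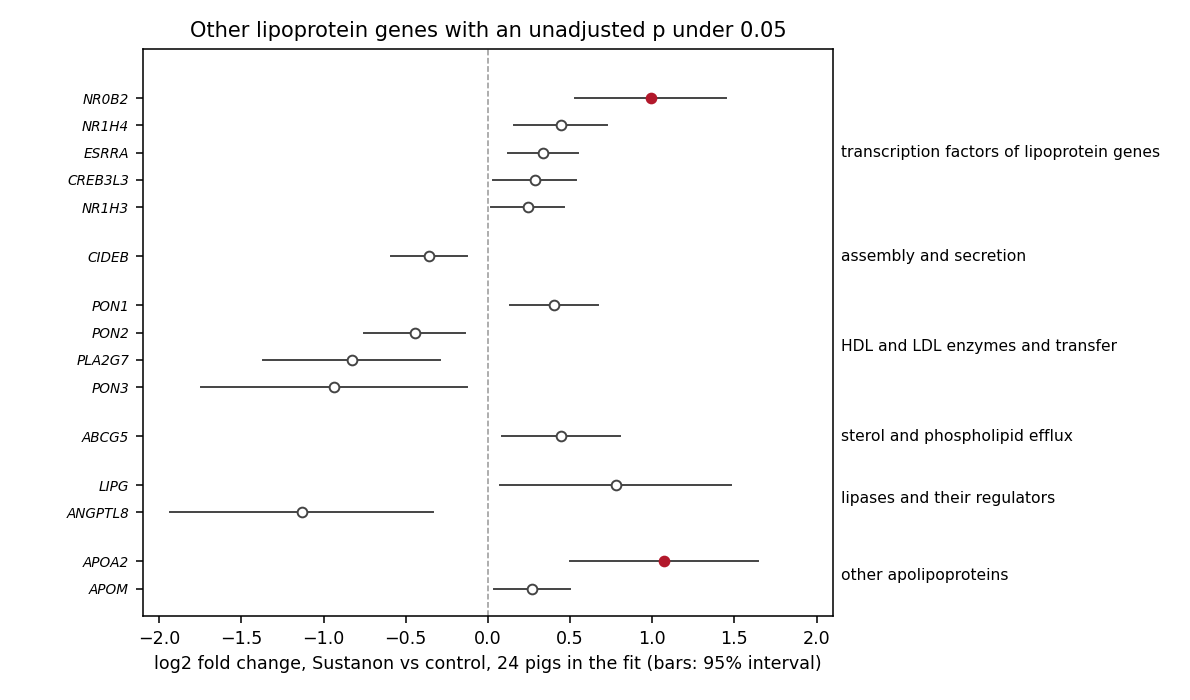
Log2 fold changes with Sustanon against control over all pigs for the other genes of lipoprotein metabolism with an unadjusted p under 0.05, 10 higher and 5 lower of 37 tested, by group and with 95% intervals as bars and filled points for an adjusted p under 0.05. APOA2 at 1.07 and NR0B2 at 0.99 are filled, and ANGPTL8 lies lowest at -1.13.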

How the data were processed

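Per the labels and the study's methods, stranded poly-A libraries from 24 pig livers were aligned with STAR 2.5 to Sscrofa11.1. The authors deposited unnormalised counts of reads per gene, and the same libraries as log2(TPM + 1), where TPM is scaled by transcript length. The counting of reads shared by similar genes is not given in the sources used here. Each library came from a pig with its own animal number, and the pig was the replicate.

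In R 4.3.3, counts were filtered with filterByExpr, normalised by TMM and tested with edgeR 4.0.16 (quasi-likelihood, two-sided, Benjamini-Hochberg adjusted over 8279 genes), in a fit of 3 treatment groups and in a fit of 6 groups by treatment and testes. A call is an adjusted p under 0.05. CPM used TMM library sizes, and log2 CPM a prior count of 2. Intervals are 95%. Alternatives were RLE, no filter, DESeq2 1.42.0, limma 3.58.1 on log2(TPM + 1) and log2(TPM + 0.1) with a mean TPM of at least 1, 23 or 21 libraries, labelled sex, 2 groups alone, 9 groups, each library left out, and the length slope. The edgeR, DESeq2 and limma fits were tested on simulated data. The study used DESeq2.

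Positions and 9564 identifier matches came from reference tables (RefSeq for positions). No sequences are shown. An item of the further list is not reported here. Named genes are all members found, and genes of the further list called in a treatment comparison over all pigs or without testes, or between control uncastrated boars and controls without testes. Other genes of that list are examples chosen after their values were seen. The members and lists were chosen with earlier results of these data known. Marker lists of bile duct, endothelial, stromal and red blood cells had 0 called genes with Sustanon.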

Additional observations from a re-analysis of the deposited data

Results flagged for a closer look

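Within the Myodin group of 8 pigs, 2 values stood far from the rest by Dixon's test at the 95% level, among 78 groups of values tested for the members and the named genes, where chance flags about 1 in 20 groups. ABCA1 in uncastrated boar 23 was at 287 CPM, with the nearest Myodin pig at 105 CPM. APOE in uncastrated boar 24 was at 12600 CPM, with the nearest at 9370 CPM, and this library also had the lowest length slope, at -0.2122. Across the 24 pigs APOE had r of -0.614 with the length slope (permutation p = 0.00151, adjusted p = 0.00403), and -0.271 without the 2 farthest libraries.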

How the results depend on the processing

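With 8 pigs per treatment, and 2 or 3 per treatment and labelled sex, small changes of the members were not resolved. The length slope was added after seeing the data. No paired analysis was possible because animal numbers were unique to each pig and none was shared between groups. Across the alternatives, 518 values of single genes kept their direction and their side of the threshold, 31 lost a call, 9 gained one and 10 changed sign. With a library left out these were 1216, 68, 14 and 22. These tallies pool called and uncalled values. Most values were not called in the main fit and kept their side by staying uncalled, and only called values could lose a call. The tallies therefore do not give the share of calls that were kept. The causes were not tested.

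The number of members called with Sustanon against control was 0 in the 21 libraries (edgeR, ABCA1 at 1.43, adjusted p = 0.116) and 1 to 2 with a library left out. In castrated boars alone it was 0 (ABCA1 adjusted p = 0.126), with 21 of all genes called. Against Myodin over all pigs it was 1 with labelled sex as a covariate, and 0 to 1 with a library left out. Against Myodin without testes it was 0 in the fit of 9 groups (ABCA1 adjusted p = 0.0586, 152 of all genes called), 0 in castrated boars alone (0.972, 0 of all genes called by edgeR and 426 with an unadjusted p under 0.05) and 0 with the length slope (0.0637, 154 of all genes called), and 0 to 1 with a library left out.

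For Myodin against control, where no member was called, APOB changed sign to -0.0297 in both limma fits and -0.0174 in the 21 libraries, and spanned -0.0548 to 0.0889 with a library left out. NR1H4 was at 0.0244 in 23 libraries (without control castrated boar 15), 0.0726 in 21 and 7e-04 with the length slope, and spanned -0.1096 to 0.0244. With the length slope LIPC was at 0.0489 and MTTP at 0.0207, and with a library left out they spanned -0.0953 to 0.0362 and -0.1307 to 0.0326. LIPC without testes spanned -0.1249 to 0.0282. With Sustanon in castrated boars LIPC was at -0.0132. The difference of the ABCA1 effect between uncastrated boars and other pigs was 0.0096 for Sustanon with castrated boars alone, and spanned -0.553 to 0.2123 for Sustanon and -0.1316 to 0.9376 for Myodin, the lowest being without Myodin uncastrated boar 23.

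Over all genes, the 420 calls with Sustanon against control were 637 by DESeq2, 272 in 23 libraries and 0 in 21. The 55 calls of Sustanon against Myodin were 276 by DESeq2, 390 with labelled sex, 9 with the 2 groups alone and 0 with the length slope. With a library left out, the former count lay between 198 (without Sustanon uncastrated boar 19) and 613 (without Sustanon castrated boar 1), and the latter between 0 (without Sustanon castrated boar 2) and 541 (without Myodin uncastrated boar 23). Without testes, the 459 calls against control lay between 288 and 550 and the 223 against Myodin between 62 and 453, the lowest without Sustanon sow 5 and Myodin sow 11, and in the 21 libraries they were 126 and 154. The 135 calls between the controls were 30 in the 21 libraries and 7 without control uncastrated boar 27. The 0 calls with Myodin in uncastrated boars became 152, and the 9 in the difference of its effect 202, without Myodin uncastrated boar 22. The limma fit on log2(TPM + 1) moved the median log2 fold change of all genes to 0.163 between control uncastrated boars and controls without testes, to -0.157 with Myodin in uncastrated boars and to -0.154 in the difference of the Myodin effect.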
